A study of Mus musculus with 217 samples.

Results

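Of the 54532 genes in the tables, 10 form the opioid and tachykinin peptide group of the striatum, chosen by name with earlier results of these data known. The peptide precursors are *Penk*, *Pdyn*, *Tac1*, *Nts* and *Cartpt*, and the receptors are *Oprm1*, *Oprd1*, *Oprk1*, *Oprl1* and *Tacr1*. All 10 were measured in 217 RNA-seq libraries from the striatum (107) and cortex (110) of a Huntington's disease mouse model in which expression of the mutant huntingtin allele depends on IPTG. The model carries Lac operators in the promoter of an *Htt* allele with an expanded CAG repeat, beside a wild-type allele, Hdh(LacO-140Q/+), and a Lac repressor (LacIR) transgene under the beta-actin promoter; the repressor lowers, without fully silencing, the mutant allele unless IPTG is in the drinking water. The wild-type (WT) mice, Hdh(LacO-+/+), carried the same repressor transgene, so that every group shared it, and all mice were on a C57BL/6 background. WT mice received no IPTG or, as WT + IPTG, received it continuously. LacQ140 mice received IPTG from embryonic day 5 to collection and so expressed the mutant allele throughout. LacQ140_A mice never received IPTG, with the mutant allele lowered from conception. In LacQ140_2M mice IPTG was withdrawn at 2 months of age, and in LacQ140_8M mice, collected at 12 months only, at 8 months. The 6-month tissue was labelled as from the right hemisphere. Each group held 10 mice (5 female and 5 male) at 6 or 12 months of age, except the 12-month striatal WT, LacQ140 and LacQ140_8M groups, which held 9 (4 female and 5 male). LacQ140 was compared with WT + IPTG, since both received IPTG, and each lowering group with LacQ140, which differed from it in IPTG as well, and with WT. Comparisons that use the same LacQ140 or WT mice are not independent of each other.

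Most neurons of the striatum are spiny projection neurons. Those of the indirect pathway express the dopamine D2 receptor and preproenkephalin (*Penk*), the precursor of the enkephalins, which act mainly at delta (*Oprd1*) and mu (*Oprm1*) opioid receptors. Those of the direct pathway express the dopamine D1 receptor, prodynorphin (*Pdyn*), the precursor of the dynorphins, which act at kappa receptors (*Oprk1*), and preprotachykinin 1 (*Tac1*), the precursor of substance P, which acts at the neurokinin 1 receptor (*Tacr1*). *Oprl1* encodes the receptor for nociceptin, *Nts* encodes neurotensin, and *Cartpt* encodes the CART peptides. A loss of *Penk* mRNA is a known feature of the striatum in Huntington's disease and its models.

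No peptide was measured. Coding units of these precursors are shown because the comparison of *Penk* with *Pdyn* and *Tac1* compares the transcripts that encode these peptides. Each is the mouse reference sequence (GRCm38, GENCODE vM21), 5′ to 3′ in the direction of transcription, with the codons of the peptide core in capitals and 2 flanking codons on each side in lower case.
*Penk*, Met-enkephalin, unit 1: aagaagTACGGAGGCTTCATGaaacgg
*Penk*, Leu-enkephalin, unit 6: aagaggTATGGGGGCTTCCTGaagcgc
*Pdyn*, Leu-enkephalin core, unit 1: aaacgcTATGGCGGCTTTTTGcgcaaa
*Pdyn*, Leu-enkephalin core, unit 2: aaacgcTATGGGGGCTTCCTGcggcgc
*Pdyn*, Leu-enkephalin core, unit 3: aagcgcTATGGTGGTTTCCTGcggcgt
*Tac1*, tachykinin core, unit 1: cagcagTTCTTTGGATTAATGggcaag
*Tac1*, tachykinin core, unit 2: gattccTTTGTTGGACTAATGggcaaa
*Nts*, neurotensin core: aaacccAGAAGGCCCTACATTCTCaagagg
The translated *Penk* precursor held 6 Met-enkephalin cores and 1 Leu-enkephalin core, and the *Pdyn* precursor held 3 Leu-enkephalin cores and no Met-enkephalin core. In bases, the cores of *Penk* unit 6 and *Pdyn* unit 2 are identical. The *Tac1* precursor held 2 tachykinin cores and the *Nts* precursor held 1 neurotensin core. *Penk* units 1 and 6 lay in exon 2 on the minus strand, at chr4:4134328-4134354 and chr4:4133935-4133961. The *Pdyn* units lay in exon 4 on the minus strand, at chr2:129688232-129688258, chr2:129688124-129688150 and chr2:129688067-129688093. The *Tac1* units lay on the plus strand in exon 3, at chr6:7556744-7556770, and exon 6, at chr6:7559110-7559136. The *Nts* core lay in exon 4 on the minus strand, at chr10:102482349-102482378.

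Library totals ranged from 33292057 to 68038831 expected counts, with a median of 43867552. Levels are given as CPM (counts scaled to a common library size) after TMM scaling, as mean ± SD, and a gene was called when edgeR's quasi-likelihood test gave a Benjamini-Hochberg adjusted p below 0.05 over all genes tested and the fold was at least 1.2. The targeted gene, *Htt*, was lower than in WT in every lowering group: it fell in the striatum by 0.40 and 0.39 (log2) in LacQ140_A and LacQ140_2M at 6 months, and by 0.52, 0.42 and 0.27 in LacQ140_A, LacQ140_2M and LacQ140_8M at 12 months. It also fell by 0.40 in LacQ140 against WT + IPTG at 12 months (adjusted p = 9e-06), and no lowering group was called against LacQ140 (log2 differences -0.21 and -0.20 in LacQ140_A and LacQ140_2M at 6 months, and -0.25, -0.15 and -0.00 in LacQ140_A, LacQ140_2M and LacQ140_8M at 12 months, the first with adjusted p = 0.049 and a fold under 1.2). The counts do not separate the alleles, so that a fall of total *Htt* against WT is no check of the lowering itself. In the 12-month striatum *Htt* stood at 111 ± 10.9 CPM in LacQ140 (n = 9) and at 111 ± 8.15 CPM in LacQ140_8M (n = 9). In the 12-month cortex its log2 differences from LacQ140 were -0.49 in LacQ140_A, -0.43 in LacQ140_2M and -0.41 in LacQ140_8M, and none was called. Summed over 8 genes, markers of spiny neurons had medians of 7379 and 9533 CPM in the WT + IPTG striatum at 6 and 12 months and of 819 and 484.5 CPM in the cortex, and no marker gene was at 0 in every library. The 12-month cortex stood apart from the other libraries: the slope of expression on gene length had group medians of 0.015 to 0.099 there, against 0.401 to 0.554 elsewhere, and *Htt*, a long transcript, had group means of 16.99 to 28.06 CPM there, against 76.9 to 123.3 in the 6-month cortex. The 2 ages were deposited in separate tables and were scaled separately, so no test was made of levels between ages, and the *Htt* values above are set side by side as a description.

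*Penk* was by far the most abundant of the 10 per length of transcript in the striatum. In WT + IPTG mice at 6 months it stood at 1056 CPM per kb of exon, followed by *Tac1* at 80.9 and *Pdyn* at 49.15 CPM per kb. The other 7 genes lay between 0.202 (*Oprm1*) and 8.03 CPM per kb (*Oprl1*). At 12 months the same 3 led, with 1145 CPM per kb for *Penk*, 69.2 for *Tac1* and 65.12 for *Pdyn*; *Tac1* and *Pdyn* lay close together on this scale. *Oprm1* was the shallowest member, with 13 to 135 expected counts per striatal library, against 23129 to 128163 for *Penk*. In the 12-month cortex *Oprm1* had 0 to 18 expected counts, with 0 in 4 of 60 libraries. *Penk* overlaps *A830012C17Rik*, and *Oprm1* overlaps *Ipcef1*, each on the opposite strand. Whether the counting used strand is not given in the sources used here, so *Oprm1* values are uncertain; the *Penk* partner had at most 230 counts in any library.

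*Penk*, the indirect pathway peptide, had the largest fall of the 10 members in LacQ140 mice. At 6 months the lowest, median and highest *Penk* levels were 1389, 1733 and 2110 CPM in WT + IPTG mice and 966.8, 1038 and 1157 CPM in LacQ140 mice. At 12 months they were 1421, 1865 and 2308 CPM in WT + IPTG mice and 683.3, 733.6 and 890.3 CPM in LacQ140 mice. No LacQ140 mouse reached the lowest WT + IPTG mouse at either age, and *Penk* was the only member for which these groups were fully apart. Such separation was seen for 1.15% of genes tested at 6 months and 2.07% at 12 months. *Penk* fell by 0.72 ± 0.05 (log2, SE; 1.64-fold, adjusted p = 8.5e-16) at 6 months. At 12 months it fell by 1.297 ± 0.08 (2.46-fold, adjusted p = 2.8e-22). In bulk tissue, fewer cells of a type and less RNA per cell cannot be told apart. Summed levels of 8 markers of spiny neurons of both pathways moved with *Penk*. Their median was 7379 CPM (6126 to 8993) for WT + IPTG mice and 5932 CPM (4931 to 6581) for LacQ140 mice at 6 months, and 9533 CPM (7917 to 10560) and 5331 CPM (4736 to 5855) at 12 months; their part in the result was not tested.

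**Figure D1:**
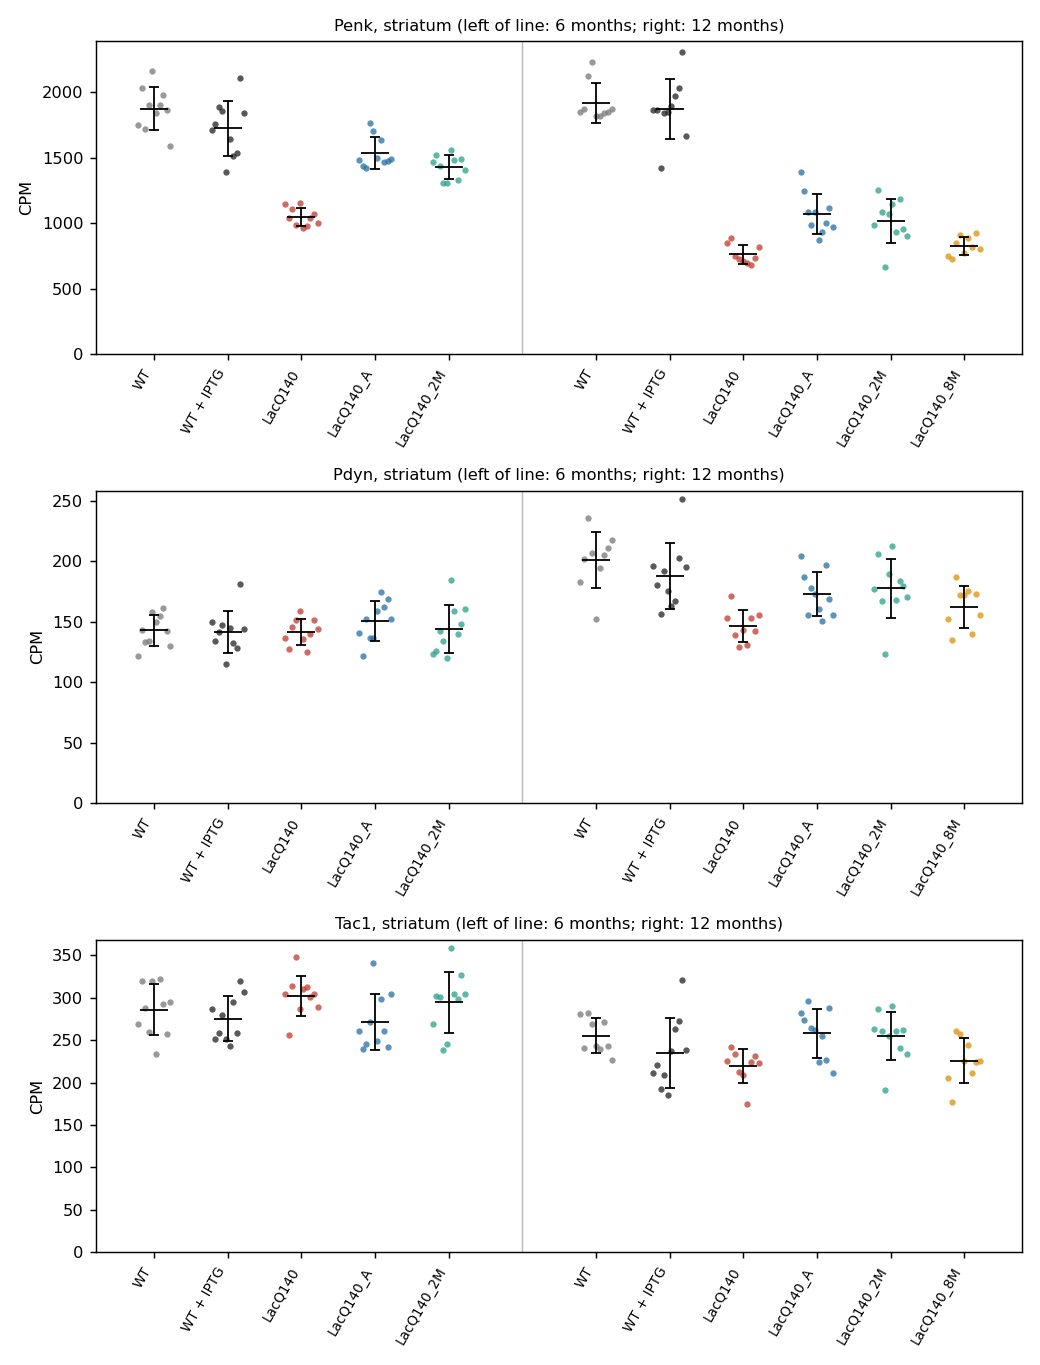
Levels of *Penk*, *Pdyn* and *Tac1* (CPM, vertical axes from 0) in the striatum of every mouse, by group, with 6 months left and 12 months right of the grey line; points are mice and bars are mean ± SD. The LacQ140 mice lie below all WT + IPTG mice for *Penk* at both ages (at most 1157 against at least 1389 CPM at 6 months, and 890.3 against 1421 CPM at 12 months), while the groups overlap for *Pdyn* and *Tac1*.

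After early lowering of the mutant allele *Penk* was higher than in LacQ140 at both ages, and after lowering from 8 months no difference was detected. At 6 months the lowest, median and highest *Penk* levels were 1420, 1486 and 1767 CPM in LacQ140_A and 1308, 1455 and 1562 CPM in LacQ140_2M mice. Both groups lay wholly above LacQ140, a separation seen for 0.279% and 0.162% of genes. *Penk* was 0.55 ± 0.05 (log2) higher than in LacQ140 in LacQ140_A (adjusted p = 2e-11) and 0.45 ± 0.05 higher in LacQ140_2M (adjusted p = 3.8e-08). In the point estimates, 76.9% and 62.6% of the LacQ140 difference from WT + IPTG was undone, as a ratio of 2 differences that share the LacQ140 mice.

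At 12 months *Penk* reached 871.1, 1044 and 1390 CPM (lowest, median and highest) in LacQ140_A and 668.3, 1032 and 1253 CPM in LacQ140_2M. LacQ140_8M mice had 724.1, 815 and 924.6 CPM. The early groups now overlapped LacQ140 at their lower ends, and the lowest LacQ140_2M mouse, F4, lay below every LacQ140 mouse. *Penk* was 0.49 ± 0.07 (log2) higher than in LacQ140 in LacQ140_A (adjusted p = 9.2e-06) and 0.42 ± 0.07 higher in LacQ140_2M (adjusted p = 0.00028), or 37.7% and 32.4% of the LacQ140 difference. In LacQ140_8M the difference was 0.12 ± 0.08 (adjusted p = 0.86), or 9.11%. Summed markers of spiny neurons had higher medians than in LacQ140 beside these *Penk* levels, a description without a test. Their medians were 7343 CPM (6996 to 8657) in LacQ140_A and 7048 CPM (6745 to 7780) in LacQ140_2M at 6 months, wholly above LacQ140. At 12 months they were 6423 CPM (5669 to 7476) in LacQ140_A, 6590 CPM (4752 to 7177) in LacQ140_2M and 6030 CPM (5088 to 6438) in LacQ140_8M. Each of these ranges overlapped that of LacQ140 (4736 to 5855 CPM). The part of these markers in the *Penk* differences was not tested. The direct comparison of LacQ140_8M with LacQ140_2M gave a log2 difference of -0.30 ± 0.07 (adjusted p = 0.084) and passed only without LacQ140_2M F4.

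No lowering group returned to WT levels of *Penk*. Against WT, which had 1876 ± 164 CPM at 6 months (n = 10) and 1921 ± 151 CPM at 12 months (n = 9), *Penk* fell by 0.29 ± 0.05 (log2, adjusted p = 0.001) in LacQ140_A and by 0.39 ± 0.05 (adjusted p = 1.4e-06) in LacQ140_2M at 6 months. The LacQ140_2M mice lay wholly below WT at that age (0.0698% of genes were fully apart). The 6-month LacQ140_A call had a fold under 1.2 without WT F5 (log2 difference -0.26). At 12 months it fell by 0.85 ± 0.07 (adjusted p = 1.2e-13) in LacQ140_A, 0.91 ± 0.07 (adjusted p = 4e-15) in LacQ140_2M and 1.22 ± 0.08 (adjusted p = 2.3e-20) in LacQ140_8M. At that age all 3 lowering groups lay wholly below WT, where 0.735%, 1.17% and 2.58% of genes were fully apart in the same order.

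*Pdyn*, the dynorphin precursor of the direct pathway, did not differ detectably at 6 months and was lower in LacQ140 at 12 months. At 6 months group means were 141.5 to 150.4 CPM, and the LacQ140 difference was -0.00 ± 0.07 (log2, adjusted p = 1). At 12 months the lowest, median and highest levels were 156.5, 186.0 and 251.6 CPM in WT + IPTG and 129.4, 143 and 171.2 CPM in LacQ140. The groups overlapped at 12 months, and *Pdyn* fell by 0.36 ± 0.07 (adjusted p = 0.00018), a smaller change than that of *Penk*.

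In the lowering groups at 12 months, mean *Pdyn* was 173 ± 18.3 CPM in LacQ140_A (n = 10), 178 ± 24.5 CPM in LacQ140_2M (n = 10) and 162 ± 17.6 CPM in LacQ140_8M (n = 9), between LacQ140 (146 ± 13.2 CPM, n = 9) and WT (201 ± 23.5 CPM, n = 9). Only the LacQ140_2M difference from LacQ140 passed (0.28 ± 0.07, adjusted p = 0.049), at the edge of the threshold. It was lost with the replicate block (adjusted p = 0.091), with sex as a covariate (adjusted p = 0.051) and when any one of 44 of the 57 striatal libraries was left out (adjusted p from 0.05 to 0.13), and it held without LacQ140_2M F4 (adjusted p = 0.0038), LacQ140 F3, LacQ140_8M F2 or F4, LacQ140_A F1, F3 or M3, WT F3 or M1, or WT + IPTG F3, M1, M2 or M4. LacQ140_A differed from LacQ140 by 0.24 ± 0.07 (adjusted p = 0.1) and LacQ140_8M by 0.15 ± 0.08 (adjusted p = 0.86). Against WT, *Pdyn* fell by 0.31 ± 0.08 in LacQ140_8M (adjusted p = 0.0028), with a fold under 1.2 when the length slope was a covariate (-0.23).

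*Tac1*, the substance P precursor of the same direct pathway neurons, passed in no striatal comparison. At 6 months its lowest, median and highest levels were 242.5, 269.4 and 319.8 CPM in WT + IPTG and 255.5, 304.1 and 347.5 CPM in LacQ140. At 12 months WT + IPTG mice lay between 185.6 and 321 CPM, with a mean of 235, and LacQ140 mice had 174.7, 223.7 and 241.3 CPM. The ranges overlapped at both ages, and the LacQ140 differences were 0.14 ± 0.06 (log2, adjusted p = 0.19) and -0.10 ± 0.07 (adjusted p = 0.48). At 12 months the differences from LacQ140 were 0.23 ± 0.07 in LacQ140_A (adjusted p = 0.11), 0.21 ± 0.07 in LacQ140_2M (adjusted p = 0.25) and 0.04 ± 0.08 in LacQ140_8M (adjusted p = 0.97).

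The balance of the indirect and direct pathway peptide transcripts was then compared within each mouse, as log2 of the ratio of CPM + 0.5, with 2-sided permutation tests adjusted over 21 tests. A group difference in this ratio is free of the scaling of a library. *Penk* over *Tac1* averaged 2.64 ± 0.16 (log2) in WT + IPTG and 1.79 ± 0.17 in LacQ140 mice at 6 months, and no LacQ140 mouse overlapped WT + IPTG. The difference was -0.85 (permutation test, adjusted p = 2.8e-05, from the smallest p the resamples can give). At 12 months it was -1.21 (exact permutation test, adjusted p = 2.8e-05), again without overlap. *Penk* over *Pdyn* fell by 0.71 at 6 months and by 0.94 at 12 months (permutation tests, adjusted p = 2.8e-05 at each age).

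Both *Penk* ratios were higher after early lowering than in LacQ140. At 6 months *Penk* over *Tac1* was 0.71 higher in LacQ140_A and 0.49 higher in LacQ140_2M than in LacQ140 (permutation tests, both adjusted p = 2.8e-05). At 12 months the differences were 0.25 in LacQ140_A (exact permutation test, adjusted p = 0.0037), 0.20 in LacQ140_2M (adjusted p = 0.012, exact) and 0.08 in LacQ140_8M (adjusted p = 0.22, exact). For *Penk* over *Pdyn* the 12-month differences were 0.24 (adjusted p = 0.0032), 0.14 (adjusted p = 0.014) and -0.03 (adjusted p = 0.62) in that order, by exact permutation tests. The ratio of the 2 direct pathway transcripts also shifted. *Tac1* over *Pdyn* was 0.14 higher in LacQ140 than in WT + IPTG at 6 months (permutation test, adjusted p = 0.046) and 0.27 higher at 12 months (exact permutation test, adjusted p = 0.0046). The 6-month call was lost without LacQ140 F1, F3, F4, M1, M2 or M3 or WT + IPTG F1, F2, F3, F4, M1 or M4 (differences 0.11 to 0.14). Against LacQ140, *Tac1* over *Pdyn* fell by 0.24 in LacQ140_A at 6 months (permutation test, adjusted p = 0.015) and by 0.11 in LacQ140_8M at 12 months (exact permutation test, adjusted p = 0.046). The latter call was lost without LacQ140_8M F1, F2, F4, M1, M2 or M4 or LacQ140 F1, F4, F5, M1, M3 or M4. The other differences of this ratio from LacQ140 were -0.06 in LacQ140_2M at 6 months (permutation test, adjusted p = 0.37), and -0.01 in LacQ140_A and -0.06 in LacQ140_2M at 12 months (exact permutation tests, adjusted p = 0.92 and 0.25).

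**Figure D2:**
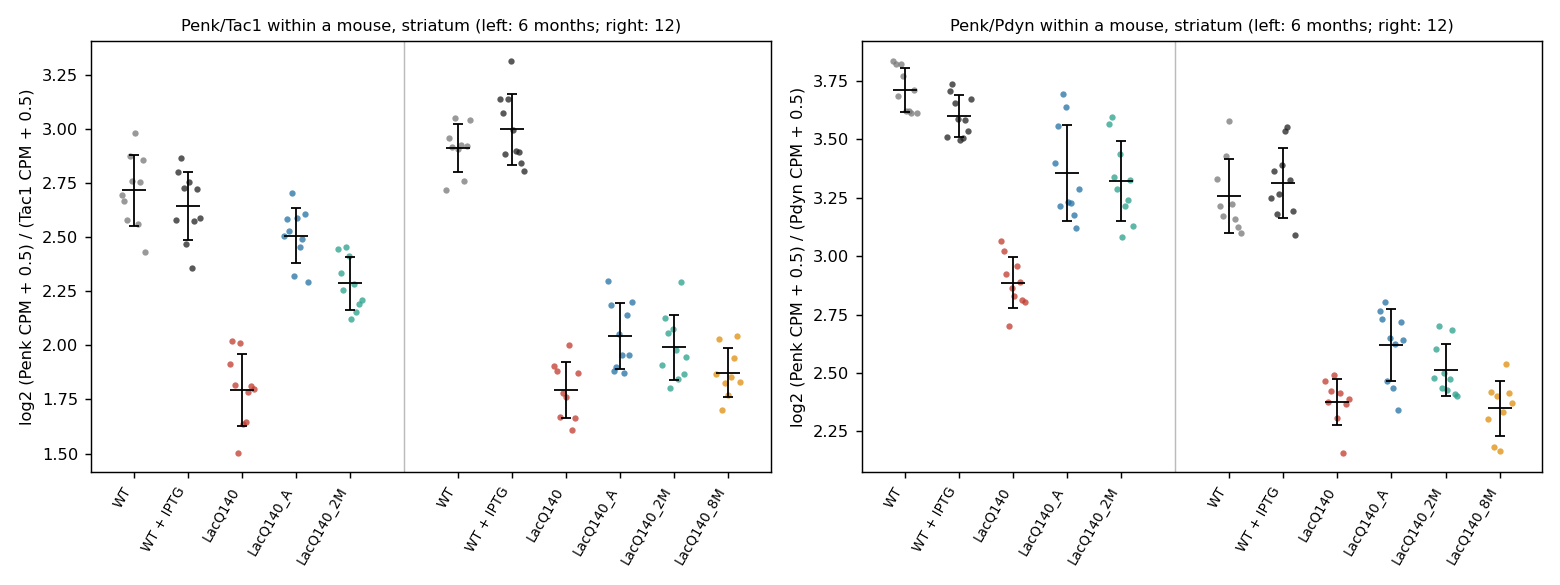
Log2 ratios of *Penk* to *Tac1* (left panel) and *Penk* to *Pdyn* (right panel), each from CPM + 0.5, in the striatum of every mouse, by group and age; the axes do not start at 0, points are mice and bars are mean ± SD. At 6 months the mean ratios of LacQ140_A and LacQ140_2M lie between those of LacQ140 and WT + IPTG, and at 12 months all 4 LacQ140 groups lie below all WT and WT + IPTG mice.

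*Nts*, the neurotensin precursor, was higher in LacQ140, and no lowering group differed detectably from LacQ140. At 12 months its lowest, median and highest levels were 3.208, 4.164 and 6.486 CPM in WT + IPTG and 6.116, 7.588 and 10.36 CPM in LacQ140, so that the groups met only at their edges. *Nts* was 0.89 ± 0.13 (log2) higher (1.85-fold, adjusted p = 2.5e-07). The differences from LacQ140 were -0.02 ± 0.13 in LacQ140_A, -0.05 ± 0.13 in LacQ140_2M and -0.01 ± 0.13 in LacQ140_8M (all adjusted p = 1). Against WT (5.22 ± 1.33 CPM, n = 9), *Nts* was higher in LacQ140_A (0.58 ± 0.13, adjusted p = 0.0017), LacQ140_2M (0.56 ± 0.13, adjusted p = 0.0026) and LacQ140_8M (0.60 ± 0.13, adjusted p = 0.00077).

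At 6 months *Nts* was noisier. WT + IPTG mice had 5.905, 8.482 and 19.93 CPM (lowest, median and highest) and LacQ140 mice 9.864, 12.93 and 24.56 CPM. The difference of 0.54 ± 0.18 (log2, adjusted p = 0.038) was lost without LacQ140 F1, F4, F5 or M2 or WT + IPTG F2, F3, F4, M1, M2 or M4 (adjusted p from 0.054 to 0.14), and over the other ways of processing the adjusted p ran from 0.0021 to 0.072. LacQ140_A and LacQ140_2M differed from LacQ140 by -0.48 ± 0.18 (adjusted p = 0.19) and -0.54 ± 0.18 (adjusted p = 0.14).

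*Cartpt* was low and variable, and did not differ between LacQ140 and WT + IPTG beyond its spread. The log2 differences were 0.37 ± 0.28 (adjusted p = 0.49) at 6 months, where LacQ140 mice ranged from 2.122 to 16.98 CPM, and 0.07 ± 0.26 (adjusted p = 0.97) at 12 months. At 12 months *Cartpt* was lower than in WT (1.612, 4.655 and 12.99 CPM, lowest, median and highest) in LacQ140_A (-0.80 ± 0.24, adjusted p = 0.04) and LacQ140_2M (-0.94 ± 0.25, adjusted p = 0.0085). The latter call was lost without WT M1, the mouse at 12.99 CPM (adjusted p = 0.089), and the former without WT F5, M1 or M2 or LacQ140_A F3, F4, M1, M2, M4 or M5 (adjusted p from 0.052 to 0.28). The LacQ140_A call was also lost with the replicate block (adjusted p = 0.076), with the 2 groups alone (0.068) and with DESeq2 (0.075). WT + IPTG mice, which were not called against WT, had 3.03 ± 1.17 CPM (n = 10).

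Among the receptors, *Oprl1*, the nociceptin receptor, was higher in LacQ140 at both ages. At 6 months its lowest, median and highest levels were 26.47, 28.93 and 37.29 CPM in WT + IPTG and 33.08, 38.83 and 41.67 CPM in LacQ140. At 12 months they were 19.54, 23.5 and 31 CPM in WT + IPTG and 27.87, 32.98 and 40.48 CPM in LacQ140. The ranges overlapped, and the differences were 0.34 ± 0.06 (log2, adjusted p = 5.6e-05) and 0.45 ± 0.07 (adjusted p = 1.2e-06). In LacQ140_A the *Oprl1* differences from LacQ140 were -0.20 ± 0.06 at 6 months (adjusted p = 0.073) and -0.27 ± 0.07 at 12 months (adjusted p = 0.032). The 12-month call was lost without LacQ140 F5, M2, M3 or M5 or LacQ140_A F1, F2, F5 or M4 (adjusted p from 0.052 to 0.11), and its fold was under 1.2 with the length slope as a covariate (-0.24). In LacQ140_2M the differences from LacQ140 were -0.22 ± 0.06 at 6 months (adjusted p = 0.048, fold under 1.2) and -0.08 ± 0.07 at 12 months (adjusted p = 0.85). LacQ140_8M stayed at 33.9 ± 2.47 CPM (n = 9), 0.36 ± 0.07 above WT (adjusted p = 0.00015).

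*Oprd1*, the delta receptor at which enkephalins act, was lower in LacQ140 at 12 months. Its lowest, median and highest levels were 13.51, 22.19 and 26.08 CPM in WT + IPTG and 9.355, 13.08 and 17.11 CPM in LacQ140. All but the lowest WT + IPTG values lay above LacQ140, and *Oprd1* fell by 0.70 ± 0.14 (log2, adjusted p = 0.00016). The WT mice without IPTG had 16.6 ± 3.02 CPM (n = 9), below WT + IPTG (21.3 ± 3.98 CPM, n = 10; difference 0.36 ± 0.14, adjusted p = 0.27). With all WT mice pooled the fall was 0.54. Female and male means were 24.45 and 18.05 CPM in WT + IPTG, 13.83 and 18.74 CPM in WT, and 10.34 and 18.13 CPM in LacQ140_A. No lowering group differed detectably from LacQ140 in *Oprd1* at 12 months (0.12 ± 0.15, adjusted p = 0.8, in LacQ140_A, 0.26 ± 0.15, adjusted p = 0.7, in LacQ140_2M and 0.35 ± 0.15, adjusted p = 0.86, in LacQ140_8M). At 6 months the LacQ140 difference was -0.17 ± 0.09 (adjusted p = 0.3).

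*Oprk1*, the dynorphin receptor, was higher in LacQ140 at 6 months only just past the fold bound. WT + IPTG mice lay between 15.81 and 18.35 CPM, with a median of 17.06, and LacQ140 mice between 17.31 and 23.75 CPM, with a median of 20.48. The difference was 0.27 ± 0.07 (log2, 1.2-fold, adjusted p = 0.0072), and the fold dropped under the bound without LacQ140 F1, F2 or F4 or WT + IPTG F3, F4 or M1 (log2 difference 0.24 to 0.26). It also did so with the 2 groups fitted alone (0.26) and with all WT mice pooled (0.20, adjusted p = 0.021). The WT mice without IPTG were more spread, at 14.32 to 24.19 CPM. LacQ140_2M exceeded them by 0.27 ± 0.07 (adjusted p = 0.04), a call lost without LacQ140_2M F3, M1, M3, M4 or M5 or WT F1, F2, F3, M2, M3, M4 or M5 (adjusted p from 0.055 to 0.11) and with the replicate block, the length slope or the 2 groups alone (adjusted p = 0.079, 0.079 and 0.1). At 12 months the LacQ140 difference in *Oprk1* was -0.04 ± 0.10 (adjusted p = 0.93).

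*Tacr1*, the substance P receptor, differed from LacQ140 in LacQ140_A at 6 months. LacQ140 mice had 24.13, 29.8 and 33.57 CPM (lowest, median and highest) and LacQ140_A mice 29.65, 36.47 and 41.65 CPM, a difference of 0.31 ± 0.08 (log2, adjusted p = 0.014). LacQ140 itself differed from WT + IPTG by -0.08 ± 0.08 (adjusted p = 0.62) at that age. At 12 months *Tacr1* was 35.6 ± 3.6 CPM in LacQ140 (n = 9) and 41.9 ± 4.55 CPM in WT + IPTG (n = 10), a difference of -0.24 ± 0.07 (adjusted p = 0.01) with a fold under 1.2. *Oprm1*, the mu receptor, stood at group means of 1.09 to 1.75 CPM and passed in no striatal comparison (LacQ140 differences 0.12 ± 0.14, adjusted p = 0.66, and -0.17 ± 0.25, adjusted p = 0.76). Its difference of LacQ140_8M from WT at 12 months was 0.66 (adjusted p = 0.092), which passed with the 2 groups fitted alone (0.66, adjusted p = 0.0041) and was -0.031 (adjusted p = 1) with the length slope as a covariate.

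**Figure D3:**
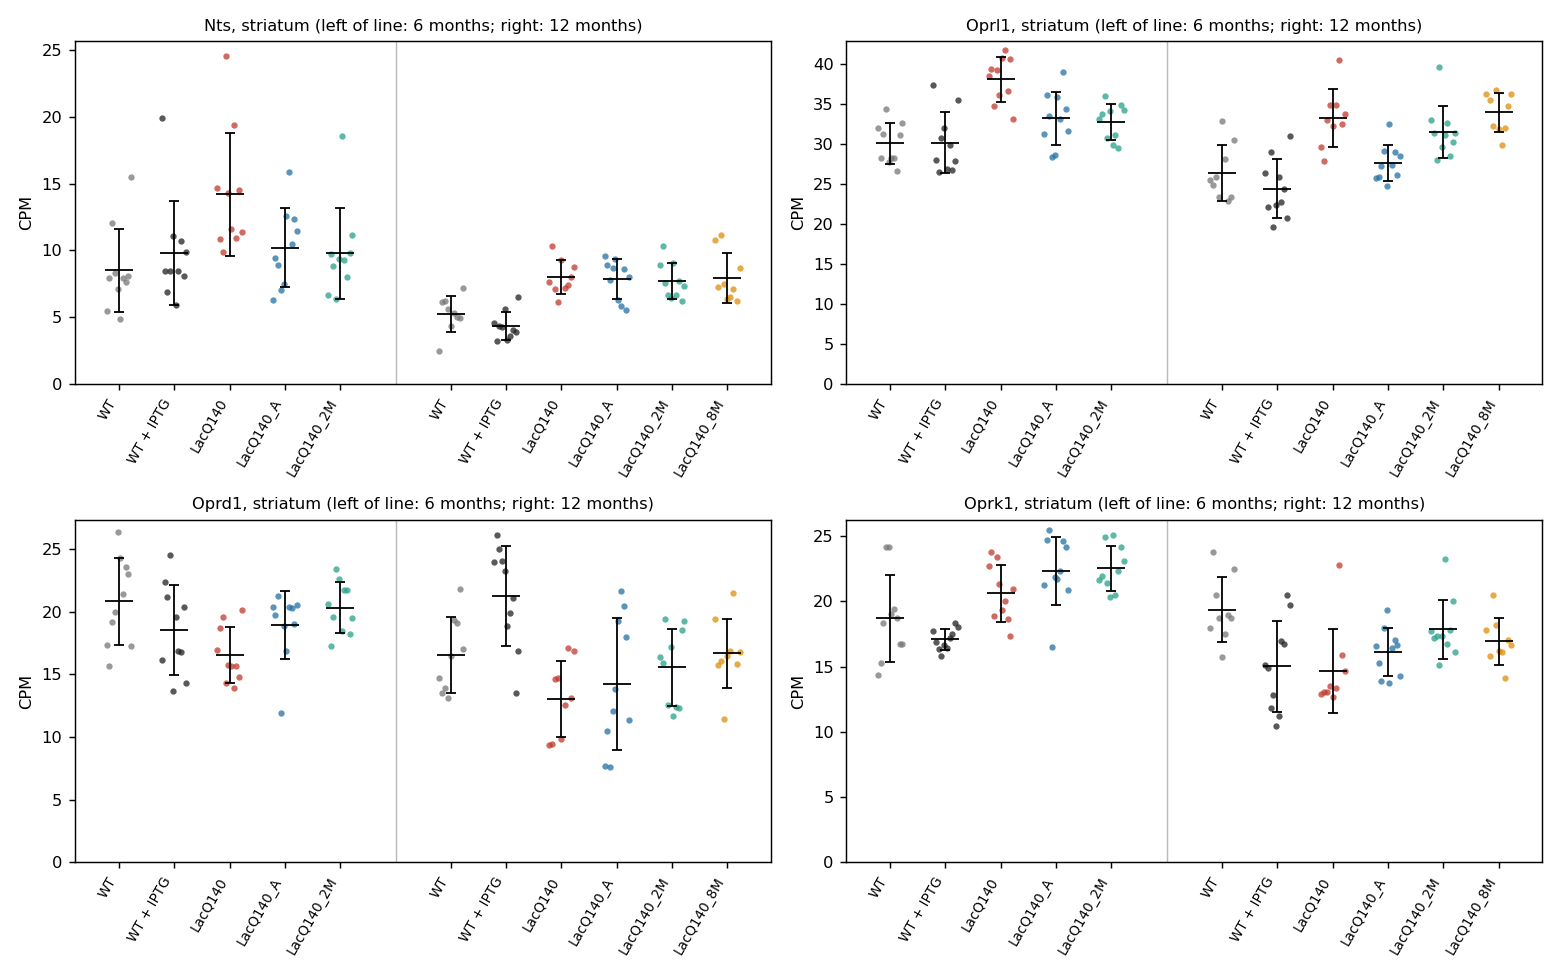
Levels of *Nts*, *Oprl1*, *Oprd1* and *Oprk1* (CPM, vertical axes from 0) in the striatum of every mouse, by group, with 6 months left and 12 months right of the grey line; points are mice and bars are mean ± SD. At 12 months all 4 LacQ140 groups have higher mean *Nts* than WT + IPTG (7.69 to 7.98 against 4.33 CPM), and *Oprl1* is lower in LacQ140_A (27.6 CPM) than in LacQ140 (33.2 CPM).

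Counted over the 10 members, LacQ140 against WT + IPTG gave 4 calls at 6 months (*Nts*, *Oprk1* and *Oprl1* higher, *Penk* lower) and 5 at 12 months (*Nts* and *Oprl1* higher, *Penk*, *Pdyn* and *Oprd1* lower). Over all genes tested, 7.93% (3.97% higher and 3.96% lower) and 9.44% (4.58% higher and 4.86% lower) were called. The median difference of the members was 0.13 and -0.14 (log2), against 0 over all genes. The 6-month count was 2 to 4 when 1 library was left out. LacQ140_A against LacQ140 gave 2 calls at each age (*Penk* and *Tacr1*, then *Penk* and *Oprl1*; background 1.88% and 0.91%), and LacQ140_2M gave 1 and 2 (*Penk*, then *Penk* and *Pdyn*; background 1.26% and 0.608%). LacQ140_8M against LacQ140 gave 0 calls by edgeR and by DESeq2, with 0.00565% of all genes called. In edgeR 2 members had an unadjusted p below 0.05 there, against 1815 of all 35386 genes tested. LacQ140_8M against LacQ140_2M also gave 0 by both tools, with a background of 0.0933%. In that comparison 2 members had an unadjusted edgeR p below 0.05, against 2668 of all 35386 genes.

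Against WT, LacQ140_A gave 1 call at 6 months and 3 at 12 months (background 0.91% and 3.15%), LacQ140_2M gave 2 and 3 (0.936% and 4.09%), and LacQ140_8M gave 4 (*Penk* and *Pdyn* lower, *Nts* and *Oprl1* higher; 7.77%). IPTG in WT mice gave 0 calls at either age by edgeR and by DESeq2 (background 0.584% and 0.218%). An unadjusted edgeR p below 0.05 was seen for 1 member at 6 months and 4 at 12 months. Over all genes it was seen for 3179 of 35808 and 4039 of 35386. The nearest to a call was *Oprk1* at 12 months, 0.37 ± 0.10 lower on the log2 scale with IPTG (adjusted p = 0.073); it passed without LacQ140 M3, WT + IPTG M4 or WT + IPTG M5 (adjusted p from 0.014 to 0.043).

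**Figure D4:**
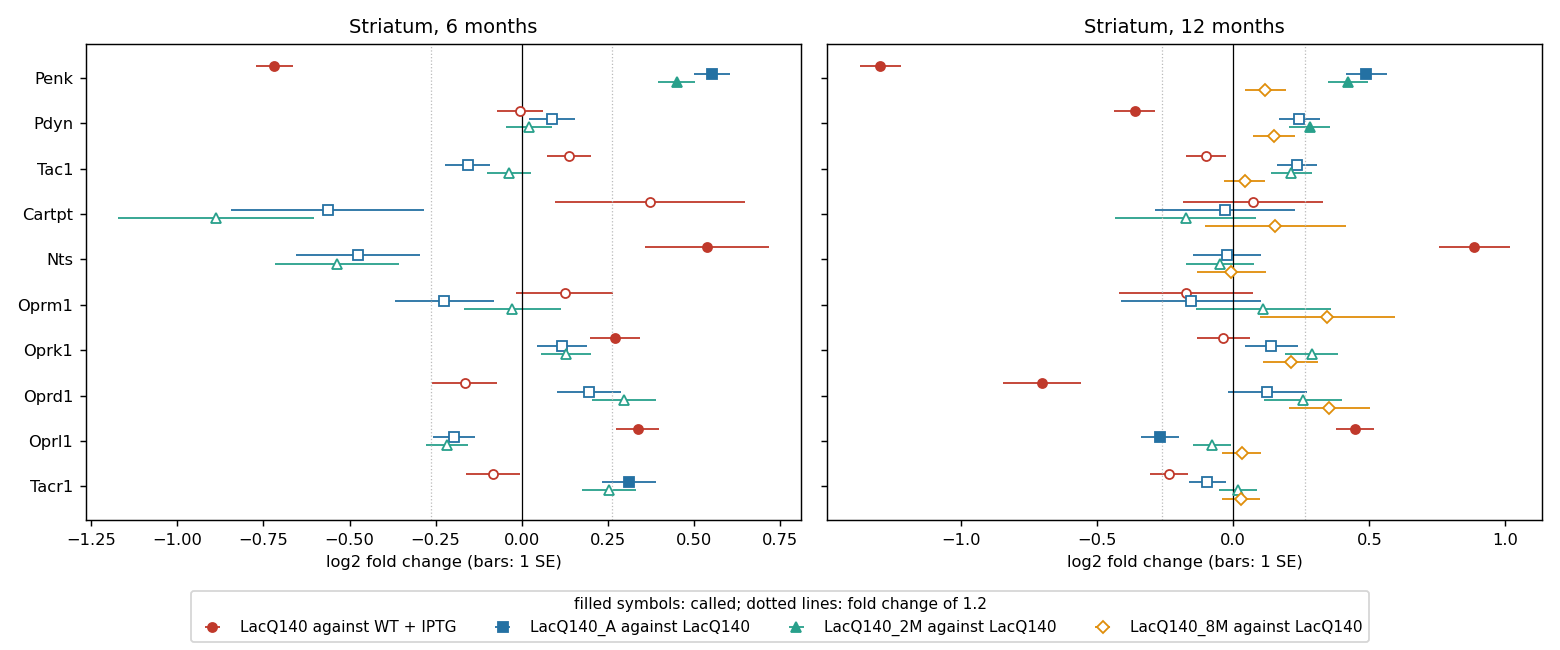
Log2 differences in the striatum for the 10 members, for LacQ140 against WT + IPTG and for each lowering group against LacQ140, at 6 and 12 months; points are estimates, filled where called, bars are 1 SE and dotted lines mark a fold of 1.2. *Penk* has the largest fall in LacQ140 (-0.72 and -1.297) and the largest rises over LacQ140 in LacQ140_A (0.55 and 0.49) and LacQ140_2M (0.45 and 0.42).

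The fall of *Penk* in LacQ140 was larger at 12 than at 6 months. The log2 difference at 12 months minus that at 6 months, each within its own age, was -0.58 ± 0.10 for *Penk* (adjusted p = 2.2e-05) and -0.36 for *Pdyn* (adjusted p = 0.037), against 2.07% of all genes called. *Oprd1* had an age difference of -0.54 (adjusted p = 0.082). Whether the lowering effects changed with age was tested after the data had been seen. The rise of *Penk* over LacQ140 did not differ detectably between the ages (-0.06 in LacQ140_A and -0.03 in LacQ140_2M, both adjusted p = 1). No member was called in these 2 tests by edgeR or DESeq2 (background 0.134% and 0.0241%); *Tac1* and *Tacr1* came nearest, at 0.40 (adjusted p = 0.085) and -0.40 (adjusted p = 0.098) for LacQ140_A. The shortfall of *Penk* from WT was larger at 12 months, by -0.56 in LacQ140_A (adjusted p = 5.3e-05) and by -0.53 in LacQ140_2M (adjusted p = 0.00031), with backgrounds of 1.57% and 0.564%. *Oprk1* (-0.52, adjusted p = 0.0082) and *Tacr1* (-0.41, adjusted p = 0.021) also differed between ages in LacQ140_A against WT, though neither was called at either age. Mean *Oprk1* was 22.35 CPM in LacQ140_A and 18.69 CPM in WT at 6 months, and 16.12 and 19.37 CPM at 12 months. Mean *Tacr1* was 36.57 and 32.05 CPM at 6 months, and 33.29 and 38.64 CPM at 12 months, in the same order.

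Other markers of both pathways moved as well. Of 6 indirect pathway markers, *Gpr52* was not matched by symbol and was left out; of the other 5, 3 fell in LacQ140 at both ages: *Drd2*, the dopamine D2 receptor (by 0.45 and 0.86, log2), *Adora2a*, an adenosine receptor (by 0.44 and 1.06), and the orphan receptor *Gpr6* (by 0.46 and 0.92). *Sp9*, a transcription factor of these neurons, rose at 6 months (0.42, adjusted p = 0.021). The list medians were -0.44 and -0.86. Of 6 direct pathway markers, *Drd1*, the dopamine D1 receptor, fell at both ages (by 0.39 and 0.82), with *Sfxn1* at 6 months and the muscarinic receptor *Chrm4* at 12 months (by 0.69), while *Eya1* rose at both ages and *Isl1* at 6 months. The medians were -0.08 and -0.20. Thus *Drd1* fell at 6 months, where *Pdyn* and *Tac1* had log2 differences of -0.00 and 0.14. Over the 8 markers of both pathways, 6 fell at 6 months and 8 at 12 months, where 3.96% and 4.86% of all genes were called lower and 3.97% and 4.58% higher. At 6 months the summed indirect markers had a median of 665.8 CPM (539.2 to 778.1) for WT + IPTG mice and 502.4 CPM (421.5 to 608.6) for LacQ140 mice, and the direct markers 381 CPM (347.1 to 419.4) and 317.6 CPM (292.9 to 354). At 12 months these medians were 916 CPM (731.6 to 1009) and 502.5 CPM (425.6 to 543.4) for the indirect list, and 430.5 CPM (351 to 467.2) and 292 CPM (250.4 to 319.1) for the direct list, without overlap of the groups for either.

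Summed markers of other cells are given for the same groups as a description, without a test. The 5 oligodendrocyte markers summed to a median of 13650 CPM (11980 to 15530) in WT + IPTG and 10590 CPM (9171 to 11460) in LacQ140 at 6 months, and to 12460 CPM (10570 to 14230) and 10460 CPM (7965 to 13110) at 12 months. General neuronal markers lay at 2664 CPM (2401 to 2905) and 2659 CPM (2530 to 2800) at 6 months. Astrocyte markers had medians of 1169 and 1015 CPM at 6 months and 1052 and 960.3 CPM at 12 months, microglial markers 263.1 and 228.2 CPM, then 284.5 and 270.9 CPM, endothelial markers 161.4 and 136.3 CPM, then 178.4 and 149.5 CPM, and interneuron markers 524 and 483.1 CPM, then 455.5 and 428.2 CPM, in WT + IPTG and LacQ140 in that order. The 10 markers of neighbouring tissue had medians of 73.13 CPM (25.4 to 780.7) and 47.38 CPM (26.34 to 98.83) at 6 months, and 53.56 CPM (23.63 to 415.9) and 31.79 CPM (26.34 to 144.6) at 12 months. The 5 cortical excitatory markers had medians of 31.27 CPM (3.732 to 84.76) and 9.634 CPM (4.633 to 70.7) at 6 months, and 10.97 CPM (3.548 to 74.92) and 8.382 CPM (5.635 to 306.1) at 12 months. The part of these markers in the results was not tested.

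Among the genes that act with these peptides, 3 regulators of G protein signalling and an adenylyl cyclase fell in LacQ140. Of 18 genes of receptor coupling and desensitisation, 4 fell in LacQ140 at each age and 0 rose: *Rgs4* (by 0.65 and 0.85, log2), *Rgs9* (by 0.33 and 0.74) and *Rgs14* (by 0.60 and 1.203), which speed the shut-off of G proteins, and *Adcy5*, the adenylyl cyclase of spiny neurons (by 0.35 and 0.91). *Rgs9* and *Adcy5* are also among the spiny neuron markers counted above. The medians of the 18 were -0.06 and 0.06. At the 2 ages 7.93% and 9.44% of all genes were called, and 3.96% and 4.86% were called lower. All 4 rose over LacQ140 in both LacQ140_A and LacQ140_2M at 6 months, by 0.30 to 0.55. At 12 months *Rgs14* rose in LacQ140_A (0.47, adjusted p = 9e-05), and *Rgs9*, *Rgs14* and *Adcy5* rose in LacQ140_2M. In LacQ140_8M against LacQ140, edgeR called 0 of the 18, with 4 at an unadjusted p below 0.05 (1815 of 35386 over all genes).

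In LacQ140 against WT + IPTG, genes that make and degrade the peptides gave calls at 12 months only. Over all genes tested, 7.93% and 9.44% were called at 6 and 12 months. An unadjusted edgeR p below 0.05 was seen for 7909 of 35808 and 8028 of 35386 genes. Of 10 processing and secretory granule genes, 0 passed at 6 months by edgeR, with 5 at an unadjusted p below 0.05, and only *Scg5*, a chaperone of a prohormone convertase, rose at 12 months (0.31, adjusted p = 3.5e-05). Of 8 peptidases, 0 passed edgeR's test at 6 months, with 3 at an unadjusted p below 0.05; at 12 months *Ace*, the angiotensin-converting enzyme, fell by 0.91 (adjusted p = 1.3e-14) and *Ece2* rose by 0.50 (adjusted p = 3.7e-09). *Ace* rose over LacQ140 in LacQ140_A (0.49 and 0.32 at 6 and 12 months) and LacQ140_2M (0.33 and 0.35). Of 9 further ligands and receptors of these families, 0 passed edgeR's test at 6 months, with 2 at an unadjusted p below 0.05. At 12 months *Tac2*, the neurokinin B precursor, rose by 1.69 ± 0.41 (adjusted p = 0.0018), and the neurotensin receptors *Ntsr2* and *Sort1* fell by 0.32 (adjusted p = 2.2e-05) and 0.31 (adjusted p = 7.3e-07). Of 7 other neuropeptide genes, *Cck* fell at 6 months (by 0.90, adjusted p = 0.041) and 0 passed edgeR's test at 12 months, with 2 at an unadjusted p below 0.05. At 6 months the summed cortical excitatory markers had medians of 31.27 CPM in WT + IPTG and 9.634 CPM in LacQ140, with overlapping ranges. The part of these markers in the *Cck* fall was not tested.

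In the cortex, 0 members were called in any of the 15 comparisons by edgeR or by DESeq2, with 0 to 3 at an unadjusted p below 0.05. Over all genes, from 977 of 34493 to 4545 of 34493 had such an edgeR p in these comparisons. LacQ140 against WT + IPTG called 0.881% of genes at 6 months and 0.0899% at 12 months there. In the 6-month cortex 0.609% of genes were called for IPTG in WT, 0.00834% for LacQ140_A and 0% for LacQ140_2M against LacQ140, and 0.425% and 0.111% for the same groups against WT. In the 12-month cortex 0% were called for IPTG in WT, 0.0435%, 0.0841% and 0% for LacQ140_A, LacQ140_2M and LacQ140_8M against LacQ140, 0.0174%, 0.0899% and 0.0377% for them against WT, and 0.0899% for LacQ140_8M against LacQ140_2M. The lowest adjusted p was 0.22, for *Cartpt* in LacQ140_8M against WT at 12 months (log2 difference -0.42), followed by 0.23 for *Oprd1* in LacQ140 against WT + IPTG at 6 months (-0.26) and 0.24 for *Penk* in LacQ140_8M against WT at 12 months (-0.45). For *Penk* at 12 months the lowest, median and highest levels were 29.34, 62.47 and 88.4 CPM in WT + IPTG and 27.44, 45.13 and 58.77 CPM in LacQ140, a difference of -0.46 (log2, adjusted p = 0.26) that passed only with the length slope as a covariate or with the 2 groups fitted alone. At 6 months the difference was -0.33 (adjusted p = 0.62), with WT + IPTG mice spread from 43.17 to 113.1 CPM. *Penk* in the cortex was lower than in the striatum by 24.7-fold at 6 months and 30.7-fold at 12 months in WT + IPTG mice. *Tac1* was 12.4-fold and 5.15-fold, and *Pdyn* 6.19-fold and 10.7-fold, higher in the striatum. The ranges of the tissues did not overlap for these 3 genes. The tissues were scaled separately and no test of their levels was made, and the 12-month libraries of the tissues differ in their length slope.

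The difference between the tissues was itself tested. At 12 months the LacQ140 difference in the striatum minus that in the cortex was -0.86 ± 0.17 for *Penk* (adjusted p = 0.00026) and -0.95 ± 0.25 for *Oprd1* (adjusted p = 0.013), against 2.53% of all genes called, and 1.13 ± 0.34 for *Nts* (adjusted p = 0.051). In the cortex *Oprd1* averaged 3.44 ± 0.998 CPM for WT + IPTG and 4.02 ± 0.866 CPM for LacQ140 mice (n = 10 each), a difference of 0.22 that did not pass (adjusted p = 0.77). At 6 months no member differed between tissues by edgeR or DESeq2 (background 0.653%); the tissue difference for *Penk* was -0.40 ± 0.20 (adjusted p = 0.63).

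**Figure D5:**
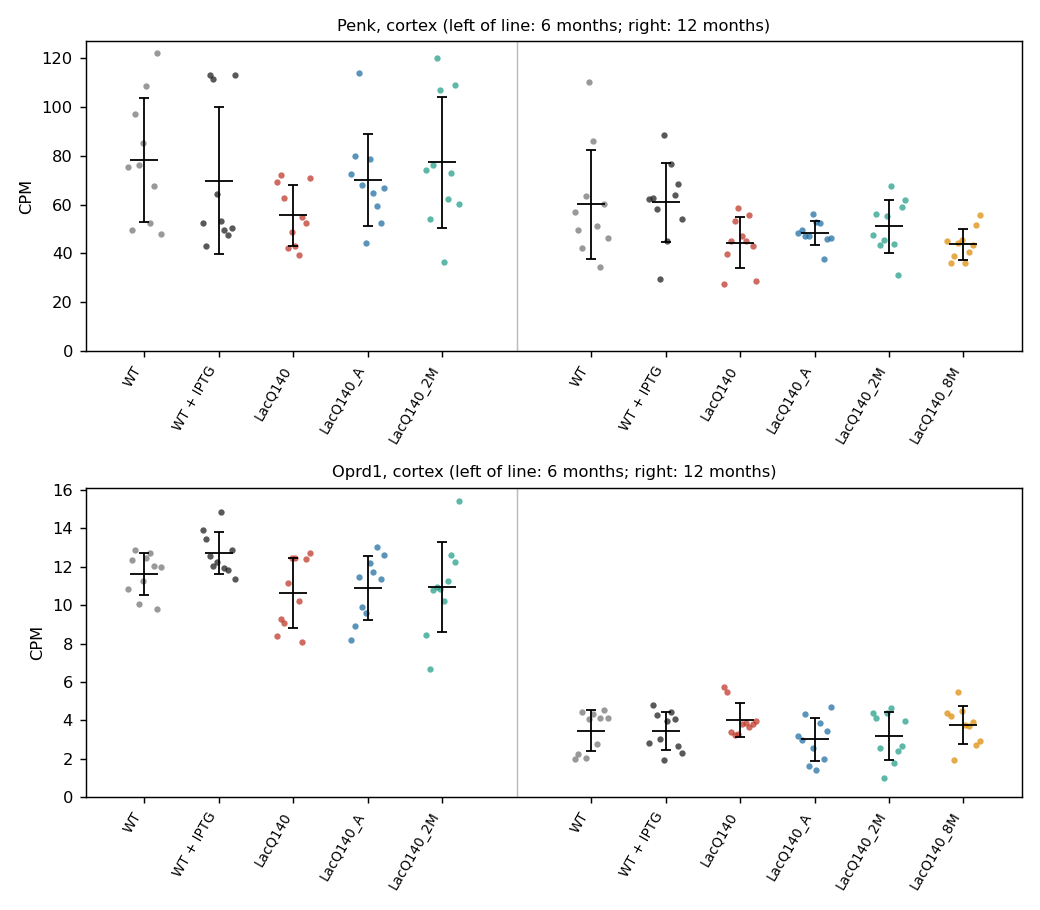
Levels of *Penk* and *Oprd1* (CPM, vertical axes from 0) in the cortex of every mouse, by group and age; points are mice and bars are mean ± SD. The LacQ140 and WT + IPTG groups overlap for both genes at both ages, and *Oprd1* is read at 3.03 to 4.02 CPM on average in the 12-month libraries, which differ in length slope from the 6-month ones.

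The genes whose group means followed *Penk* most closely were *Lrrc10b*, *Arpp21* and *Phex*, with Pearson's r of 0.997, 0.996 and 0.996 over the 11 striatal group means, each centred within its age, among 13723 genes compared. For *Pdyn* they were *Ciart*, *Camkk1* and *Papln* (0.963, 0.961 and 0.957), and for *Tac1* they were *Arpc1a*, *Gm4739* and *Zfp870* (0.951, 0.871 and 0.864). These correlations are descriptions over group means of the same libraries.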

How the data were processed

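Striatum and cortex RNA from 110 mice was sequenced (100 bp paired-end, NovaSeq). The authors deposited expected counts per gene on GRCm38 in 1 table per age, each with both tissues; 32.52% of nonzero values were not whole, so they were rounded. The aligner, quantifier and strand setting are not given in the sources used here. Groups came from the sample labels, and replicates were separate mice. The members and gene lists were chosen with earlier results of these data known. In each tissue and age, genes with at least 1 count were TMM-scaled and fitted with edgeR 4.0.16 (R 4.3.3) over all groups, with group as the only term. Per-mouse ratios used a pseudocount of 0.5 CPM and permutation tests (100000 resamples, exact where a group had under 10 mice). Tissue and age differences were interaction terms; those of the lowering groups with age were added after seeing the data. The text names the 10 members, list genes that were called, and the 3 genes most like *Penk*, *Pdyn* and *Tac1*. The steps were tested on simulated counts. Alternatives were DESeq2 1.42.0, its size factors, filterByExpr, sex, length slope, replicate block, mouse block, the 2 groups alone, no fold bound, pooled WT mice, a pseudocount of 5 CPM, and leaving out each library. Of 217 libraries, 0 went against their sex label, and among 963 pairs within a group none was a duplicate.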

Additional observations from a re-analysis of the deposited data

Results flagged for a closer look

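Tests of the difference between tissues or ages passed for several members. Between tissues at 12 months, the LacQ140 difference in the striatum minus that in the cortex was -0.86 for *Penk* and -0.95 for *Oprd1* (log2). Between ages in the striatum, the LacQ140 difference changed by -0.58 for *Penk* and -0.36 for *Pdyn*. Against WT, the LacQ140_A difference changed with age by -0.56 for *Penk*, -0.52 for *Oprk1* and -0.41 for *Tacr1*, and the LacQ140_2M difference by -0.53 for *Penk*.

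Single mice stood apart from the rest of their group in 20 of the 220 groups of members, tissues and ages, where chance alone gives about 1 in 20, or about 11. In the 6-month striatum these were *Pdyn* in WT + IPTG M4 (181.3 CPM, nearest 149.7), *Nts* in WT + IPTG F1 (19.93, nearest 11.07) and LacQ140_2M M1 (18.6, nearest 11.16), and *Oprm1* in WT + IPTG M5 (0.6712, nearest 1.458). LacQ140_A F4 was low for *Oprk1* (16.53 CPM, nearest 20.89) and *Oprd1* (11.93, nearest 16.89). Marker values for these mice were at the edge of their group in some cases: neighbouring tissue markers summed to 780.7 CPM in WT + IPTG M5, against 25.4 to 210.8 in the others, and spiny neuron markers to 8657 CPM in LacQ140_A F4, against 6996 to 8160.

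In the 12-month striatum *Pdyn* was high in WT + IPTG M4 (251.6 CPM, nearest 202.3) and low in LacQ140_2M F4 (123.2, nearest 166.9), where *Oprl1* was high (39.56, nearest 32.93). In that LacQ140_2M mouse spiny neuron markers summed to 4752 CPM, against 6126 to 7177 in the others, and neighbouring tissue markers to 341.6 CPM, against 27.92 to 159.7. *Tac1* was low in LacQ140 M2 (174.7 CPM, nearest 208.6), where cortical excitatory markers summed to 306.1 CPM, against 5.635 to 20.94 in the others. *Oprk1* was high in LacQ140 M3 (22.82 CPM, nearest 15.91).

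In the 6-month cortex LacQ140_A F3 was high for *Penk* (113.7 CPM, nearest 79.9), *Tac1* (37.92, nearest 25.34) and *Nts* (9.222, nearest 5.671), with spiny neuron markers at 975.4 CPM, against 735.2 to 886.6 in the others. WT M4 was high for *Cartpt* (12.67 CPM, nearest 9.103) and WT F3 for *Oprk1* (7.449, nearest 5.766). In the 12-month cortex the mice were LacQ140_2M F4 for *Nts* (21.67 CPM, nearest 11.21), LacQ140 M3 for *Oprm1* (0.4913, nearest 0.2556), LacQ140 F2 for *Oprk1* (2.662, nearest 4.05) and LacQ140_8M F5 for *Oprl1* (47.92, nearest 38.79). Cortical excitatory markers summed to 375.6 CPM in LacQ140_2M F4, against 506.4 to 990.4 in the others of its group, to 624.7 CPM in LacQ140 M3, against 707.8 to 915.6, and to 1154 CPM in LacQ140_8M F5, against 489.1 to 950.8. The part of the marker values in these levels was not tested.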

How the results depend on the processing

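DESeq2 and its size factors left every count of called members within 1.5 times, and a pseudocount of 5 CPM, tried on the ratios, left every ratio call in place. The *Penk* calls of LacQ140 against WT + IPTG held under every alternative run in the striatum. *Nts* in LacQ140 at 6 months was lost with DESeq2 and with the replicate block (adjusted p = 0.068 and 0.072; range over the alternatives 0.0021 to 0.072). Counts moved as follows, the cause not tested unless named. LacQ140_2M against LacQ140 at 6 months went from 1 to 2 without the fold bound (*Oprl1* joins) and with only the 2 groups (*Oprd1* joins). LacQ140_2M against WT at 6 months went from 2 to 1 with the replicate block, the length slope or only the 2 groups. IPTG in WT at 12 months went from 0 to 1 with filterByExpr (*Oprk1*). At 12 months LacQ140_A against LacQ140 went from 2 to 1 with the length slope, and LacQ140_2M against LacQ140 from 2 to 1 with sex or the replicate block (*Pdyn* lost). In the 12-month cortex LacQ140 against WT + IPTG went from 0 to 1 with the length slope or only the 2 groups (*Penk*; over all genes from 8 higher and 23 lower to 44 and 90 or 98 and 343), LacQ140_A against LacQ140 from 0 to 3 with only the 2 groups (*Tac1*, *Cartpt* and *Nts*; over all genes the calls then went from 13 higher and 2 lower to 1117 and 779), and LacQ140_8M against WT from 0 to 1 with the length slope (*Penk*). With the length slope the 12-month difference of LacQ140_8M from WT turned to -0.031 for *Oprm1* (adjusted p = 1; 0.66 and passing with only the 2 groups, adjusted p = 0.0041) and -0.37 for *Oprd1*, which then passed (adjusted p = 0.00083).

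Leaving out 1 library gave 2 to 4 for LacQ140 against WT + IPTG at 6 months; in the 6-month striatum 1 to 3 for LacQ140_2M against LacQ140, 1 to 2 for LacQ140_A against WT and 1 to 2 for LacQ140_2M against WT; and in the 12-month striatum 0 to 2 for IPTG in WT, 1 to 3 for LacQ140_A against LacQ140, 1 to 2 for LacQ140_2M against LacQ140 and 0 to 1 for LacQ140_8M against LacQ140_2M. The *Tac1* over *Pdyn* ratio difference ranged from 0.11 to 0.16 for LacQ140 at 6 months, from -0.046 to 0.034 for LacQ140_A and from -0.13 to -0.088 for LacQ140_8M at 12 months, and *Oprd1* in LacQ140_8M against WT from -0.036 to 0.073. Replicate numbers were not taken to pair mice of different groups: same-numbered libraries had mean correlations of 0.085 and 0.078 in the striatum at 6 and 12 months, against 0.137 and 0.105 for other numbers of the same sex, and of 0.082 and 0.093 in the cortex, against 0.121 and 0.049, and the lowest pair lay below 0 in each. With the mouse as the block, the 12-month tissue differences were -0.88 for *Penk* and -0.92 for *Oprd1*, and no call changed. *Oprm1* had the lowest counts of the members.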
